A study of Mus musculus with 4 samples.

Results

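Glycolysis and hypoxia response genes are described here as a group of 36 genes, 6 of oxygen sensing, 3 glucose transporters, 14 glycolytic enzymes, 2 regulators of glycolysis, 4 genes of lactate and pyruvate fate and 7 genes induced by low oxygen. They were taken as the rows of the deposited expression table whose symbol equals that of a member, and all 36 are among its 24421 rows. The study measured polyadenylated RNA in 4 mice of the C57BL/6 strain aged 8 weeks. The mice numbered WT-139 and WT-140 were Usp25+/+. Those numbered KO-826 and KO-850 were Usp25-/-, without the ubiquitin protease gene Usp25, and the labels do not say how it was inactivated. Every animal, controls included, had drunk dextran sulfate sodium (DSS), which injures the gut lining, at 2.5% for 5 days and then plain water for 2 days, so no mouse without colitis treatment is part of the comparison. Each library is labelled as a short piece of distal colon from 1 mouse.

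Cells take up glucose through transporters of the SLC2A family and split it in the cytosol by glycolysis, a chain of enzymes from hexokinase to pyruvate kinase. Pyruvate is then reduced to lactate or passed to mitochondria. When oxygen falls, the prolyl hydroxylases of the EGLN family no longer mark HIF alpha subunits for removal by VHL. HIF then pairs with ARNT and switches on glycolytic enzymes, vascular growth factors and other genes, while inflammatory signals can raise HIF and glycolysis in myeloid cells as well. The inflamed gut lining is known as a tissue of low oxygen.

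HIF binds a short DNA core, ACGTG or GCGTG, so the RefSeq promoter windows of the members (GRCm38.p6 build, 250 bases before to 50 after a start site) were searched for it on both strands. At least 1 window was found for 33 of the 36 members. ACGTG occurred in 21 of the 33 members (63.6%), against 21.8% of 27025 genes with a window. Counted by window, it was in 24 of 46 member windows (52.2%) and in 19.6% of all 32851 windows. GCGTG occurred in 66.7% of the members and 35.2% of the genes. The member windows were also richer in G and C, with a median of 62.5% against 52.7%, and the part of this in the difference was not tested. A match describes the letters only and is not a measured binding site. The windows of 6 members are printed as examples. Each gene stood highest in 1 of the mice that the results turn on and holds ACGTG. Other members meet both conditions and are not printed. They are Hif1a, Slc2a1, Hk1, Hk2, Pgam1, Pkm and Pfkfb3 (mouse WT-139) and Egln1, Vegfa, P4ha1 and Ddit4 (mouse KO-826). Ldha, Pgk1 and Bnip3 were highest in mouse KO-826, and Egln3, Slc16a3 and Hk3 were highest in mouse WT-139, as described further on. The 6 printed genes were chosen after their values were seen. Members highest in the same mice but without ACGTG included Slc2a6 (mouse WT-139) and Tpi1 and Adm (mouse KO-826). No window was found for Ndrg1 and Slc2a3. Capitals mark ACGTG or its reverse complement CACGT, and the palindrome CACGTG counts as a match on each strand.
Ldha, chr7:46845554-46845853, plus strand: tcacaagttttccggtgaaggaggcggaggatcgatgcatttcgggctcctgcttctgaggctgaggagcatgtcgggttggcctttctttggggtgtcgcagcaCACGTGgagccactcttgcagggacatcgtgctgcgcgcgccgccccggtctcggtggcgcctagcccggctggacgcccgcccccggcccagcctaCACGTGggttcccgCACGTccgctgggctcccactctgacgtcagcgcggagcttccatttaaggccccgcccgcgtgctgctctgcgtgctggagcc
Pgk1, chrX:106186850-106187149, plus strand: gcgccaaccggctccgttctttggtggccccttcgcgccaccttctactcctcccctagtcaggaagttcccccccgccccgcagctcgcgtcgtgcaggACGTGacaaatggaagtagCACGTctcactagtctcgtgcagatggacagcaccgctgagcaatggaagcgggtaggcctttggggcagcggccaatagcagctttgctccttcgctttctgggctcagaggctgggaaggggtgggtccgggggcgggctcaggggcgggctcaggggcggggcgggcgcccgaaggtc
Bnip3, chr7:138909457-138909756, minus strand: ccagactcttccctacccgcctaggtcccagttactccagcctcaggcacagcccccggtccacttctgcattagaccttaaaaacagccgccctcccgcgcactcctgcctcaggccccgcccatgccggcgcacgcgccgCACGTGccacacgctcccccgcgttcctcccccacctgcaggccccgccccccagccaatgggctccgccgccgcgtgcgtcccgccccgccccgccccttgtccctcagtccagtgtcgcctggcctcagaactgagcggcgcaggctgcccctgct
Egln3, chr12:54203825-54204124, minus strand: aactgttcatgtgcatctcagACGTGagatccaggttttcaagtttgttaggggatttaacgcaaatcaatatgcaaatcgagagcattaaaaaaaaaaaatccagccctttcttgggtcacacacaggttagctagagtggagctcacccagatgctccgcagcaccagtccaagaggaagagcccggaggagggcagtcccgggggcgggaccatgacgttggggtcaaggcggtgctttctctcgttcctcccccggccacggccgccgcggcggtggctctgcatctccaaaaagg
Slc16a3, chr11:120948817-120949116, plus strand: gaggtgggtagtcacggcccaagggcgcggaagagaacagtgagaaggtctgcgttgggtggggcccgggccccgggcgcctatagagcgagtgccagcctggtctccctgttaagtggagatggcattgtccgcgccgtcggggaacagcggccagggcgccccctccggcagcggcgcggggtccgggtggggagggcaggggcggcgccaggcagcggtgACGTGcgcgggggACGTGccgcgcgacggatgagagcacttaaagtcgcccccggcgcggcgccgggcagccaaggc
Hk3, chr13:55021336-55021635, minus strand: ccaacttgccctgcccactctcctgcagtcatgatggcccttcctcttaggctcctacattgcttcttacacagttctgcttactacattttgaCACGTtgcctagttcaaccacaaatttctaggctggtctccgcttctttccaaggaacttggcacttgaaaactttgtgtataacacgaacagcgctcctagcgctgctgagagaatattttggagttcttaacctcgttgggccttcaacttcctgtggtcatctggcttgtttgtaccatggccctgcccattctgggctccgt
The printed Ldha window held 5 matches, the most of the 6 shown, and a second Ldha window held 0. The windows of Pgk1, Bnip3 and Slc16a3 held 2 each. Egln3 and Hk3 held 1 each.

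Levels are in FPKM, fragments scaled to transcript length and to mapped fragments, and a set of 4 values always gives the Usp25+/+ mice first (WT-139, then WT-140), followed by KO-826 and then KO-850. Usp25 followed the labels, at 38.5, 16.6, 2.65 and 1.71 FPKM. The libraries carried few transcripts of their labelled tissue. Of 12 colon epithelial markers only 3 reached the filter of 1 FPKM in at least 2 mice, namely Krt20, Lgals4 and Guca2a, and Zg16, Aqp8 and Cdx1 were listed at 0 in all mice. Each of 9 lung epithelial markers passed that filter, and their summed level was 2286, 4347, 5214 and 5227 FPKM. Mouse WT-139 stood apart through neutrophil genes such as S100a8 and S100a9. The summed level of 12 neutrophil markers was 43445 FPKM there, against 828, 2326 and 1364 FPKM in the other mice. The summed level of 8 smooth muscle markers lay between 15.7 and 22.4 FPKM. The files give no depth for a library, which is therefore unknown. The genes listed at 0 numbered 3862, 8813, 7175 and 8612, fewest in mouse WT-139. The part of depth or of cell content in this was not tested. In such bulk samples fewer cells of a type and less RNA per cell cannot be told apart.

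No member passed the test between the genotypes. With limma on log2(FPKM + 1) and Benjamini-Hochberg adjustment over 12103 genes, 0 of 36 members were called, and the share called among all genes was 0%. The members' adjusted p ranged from 0.968 to 0.999. Usp25 itself was not called either, with a log2 difference of -3.07 ± 0.47 (SE) and an adjusted p of 0.968 by limma. The absence of a call therefore does not show that a gene is unchanged. At an unadjusted p of 0.05, 0 members were reached in either direction, where 2.25% of all genes were higher and 1.06% lower in Usp25-/- mice. A total of 12 members had a higher mean log2 value in Usp25-/- mice and 24 a lower one. The share higher was thus 33.3%, against 53.6% of all genes, and the median log2 difference was -0.25 against 0.03. Without mouse WT-139 this became 17 of 36 higher (median -0.03), against 48.5% of all genes, and without mouse WT-140 it was 13 of 36 (median -0.11), against 55.8%. Without mouse KO-826 it was 7 of 36 (median -0.37), against 56.1%, and without mouse KO-850 it was 19 of 36 (median 0.15), against 51.4%. The balance of directions therefore turned on single mice.

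Gaps between mice of 1 genotype were set beside the difference between the genotypes on the log2(FPKM + 1) scale. For 33 of the 36 members (91.7%) the larger gap between mice of the same genotype exceeded the difference of the genotype means. The exceptions were Vhl, Gpi1 and Pkm. The same held for 79.9% of all genes tested. The larger of 2 gaps between single mice tends to exceed a difference of means even without a genotype effect, so most genes meet this measure. The 2 Usp25-/- mice differed in a steady direction. Mouse KO-826 had the higher value for 27 of 36 members (75.0%), against 48.6% of all genes, and the median gap between them was 0.47 on the log2 scale against 0.27 over all genes. Mouse WT-139 was the highest of the 4 for 15 members (41.7%, against 29.7% of all genes), WT-140 for 9 (25.0%, against 27.2%) and KO-826 for 11 (30.6%, against 25.5%). Mouse KO-850 was the highest for Vhl alone (2.78%, against 17.6%). It was the lowest for 13 members (36.1%, against 12.9%), WT-140 for 10 (27.8%, against 23.5%), KO-826 for 7 (19.4%, against 24.4%) and WT-139 for 6 (16.7%, against 39.2%). Groups did not overlap for 2 members higher and 8 lower in Usp25-/- mice, together 27.8%, against 33.7% of all genes (19% higher, 14.7% lower).

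**Figure D1:**
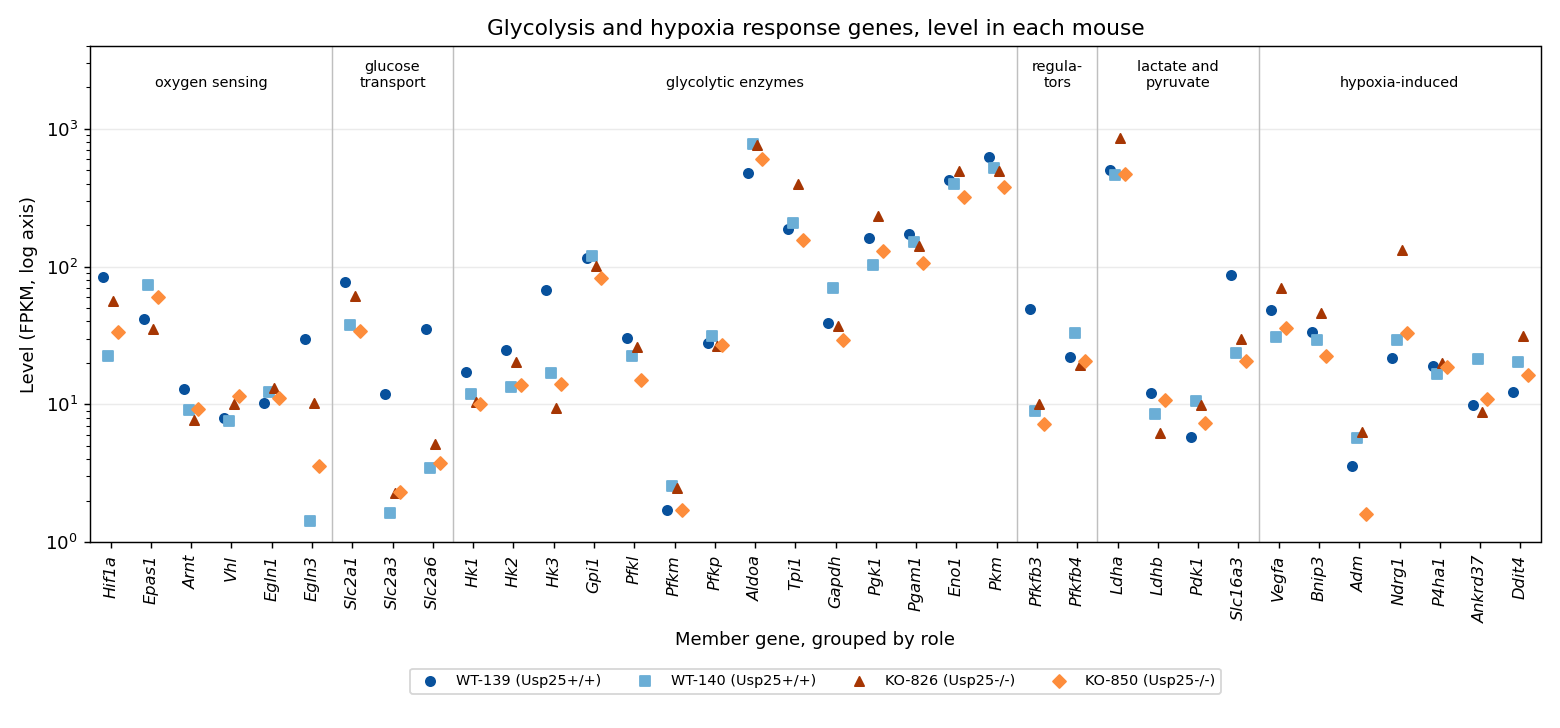
Level of each of the 36 members in FPKM on a log axis, with 1 point for each mouse (circle WT-139, square WT-140, triangle KO-826, diamond KO-850) and genes grouped by role. Aldoa, Ldha, Pkm and Eno1 stand highest, Egln3, Slc2a3 and Slc2a6 spread most widely with mouse WT-139 on top, and Ndrg1 reaches 133 FPKM in mouse KO-826.

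Among the HIF subunits, which of the alpha subunits prevailed differed between mice within each genotype. Hif1a, the broadly expressed alpha subunit, stood at 84.1, 22.5, 56.0 and 33.4 FPKM. It was highest in mouse WT-139 and lowest in mouse WT-140, so both extremes were Usp25+/+ mice (log2 difference -0.01 ± 0.68, SE). Epas1, which encodes the alpha subunit HIF-2 alpha, abundant in endothelium, stood at 41.4, 73.5, 35.4 and 60.0 FPKM. It was high where Hif1a was low. Hif1a made up 67.0% and 61.3% of the summed level of both genes in mice WT-139 and KO-826 and 23.4% and 35.8% in mice WT-140 and KO-850. The summed level of 8 endothelial markers, such as Pecam1 and Cldn5, was 119, 300.1, 108 and 216 FPKM, with the same mice high as for Epas1, and its part in the Epas1 values was not tested. Arnt, the shared partner of both alpha subunits, varied less, at 12.9, 9.11, 7.65 and 9.20 FPKM. Without mouse WT-139 the log2 difference of Hif1a was 0.91, above 0 (adjusted p = 0.758 by limma).

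Of the genes that restrain HIF, Egln3 varied the most. Egln3, a prolyl hydroxylase known to be induced by HIF itself, stood at 29.7, 1.42, 10.2 and 3.59 FPKM. Its highest and lowest levels were again both in Usp25+/+ mice, and the log2 difference of -0.26 ± 1.23 (SE) turned to 1.57 without mouse WT-139. The main oxygen sensor gene Egln1 was nearly level, at 10.3, 12.2, 13.2 and 11.1 FPKM. Egln3 accordingly made up 74.3%, 10.4%, 43.7% and 24.4% of the summed level of the 2 hydroxylase genes. Vhl, the substrate receptor of the ubiquitin ligase that removes HIF alpha, stood at 8.00, 7.63, 10.1 and 11.5 FPKM. Both Usp25-/- mice lay above both Usp25+/+ mice, and its log2 difference of 0.42 ± 0.28 (SE) had an adjusted p of 0.968 by limma. It stayed between 0.34 and 0.50 with any 1 mouse left out.

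The 3 glucose transporter genes were highest in mouse WT-139. Slc2a1, the widespread basal transporter known as GLUT1 and a HIF target, stood at 77.1, 37.9, 61.0 and 34.0 FPKM. Slc2a3, a high-affinity transporter of neurons and leukocytes, stood at 11.9, 1.63, 2.27 and 2.30 FPKM. Slc2a6 (chromosome 2, 26876883 to 26883518, mm9), a transporter induced in inflammatory macrophages, stood at 35.1, 3.43, 5.20 and 3.77 FPKM. Its level in mouse WT-139 is 6.75 times that in the next mouse, the widest such gap of the 36 members. The remaining Usp25+/+ mouse lay below both Usp25-/- mice for Slc2a3 and Slc2a6. With all mice the log2 differences were -0.83 ± 0.76 and -1.22 ± 0.98 (SE), and without mouse WT-139 they were 0.32 and 0.30. Slc2a6 was the single member called by limma in any of the settings run, with -2.73 and an adjusted p of 0.0476 when mouse WT-140 was left out, where 1.38% of all genes were called.

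Hexokinases, which trap glucose as its phosphate, differed in make-up between mice. Hk3 (chromosome 13, 55107346 to 55122746, mm9), the isoform known from myeloid cells, stood at 67.8, 16.8, 9.34 and 14.1 FPKM, or 42.3 ± 36.1 against 11.7 ± 3.35 FPKM (SD, n = 2). Its groups did not overlap, and its log2 difference was -1.49 ± 0.68 (SE), with an adjusted p of 0.968 by limma. Without mouse WT-139 the log2 difference was -0.51. Hk2, the inducible isoform, stood at 25.0, 13.4, 20.5 and 13.9 FPKM and overlapped. Hk1, the isoform of most tissues, stood at 17.3, 11.9, 10.5 and 10.1 FPKM, slightly higher in both Usp25+/+ mice. Hk3 held 61.6% of the summed hexokinase level in mouse WT-139 and between 23.2% and 39.9% in the others, whereas Hk2 held the largest share, 50.8%, in mouse KO-826.

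The 2 regulators of the phosphofructokinase step were high in different mice. Pfkfb3 (chromosome 2, 11393057 to 11423728, mm9) makes the activator of that step and is induced by inflammation and low oxygen. It stood at 49.1, 8.94, 10.1 and 7.24 FPKM, far higher in mouse WT-139 than elsewhere. Pfkfb4, a relative also induced by low oxygen, stood at 22.1, 32.8, 19.3 and 20.6 FPKM, with both Usp25-/- mice below both Usp25+/+ mice. Pfkfb3 exceeded Pfkfb4 in mouse WT-139 alone, with 69.0% of their sum against 21.4% to 34.4%. The log2 difference of Pfkfb3 was -1.22 ± 0.78 (SE) with all mice and -0.06 without mouse WT-139. Among the phosphofructokinase genes themselves, Pfkl, the liver form, stood at 30.5, 22.5, 25.9 and 15.1 FPKM. Pfkp, the platelet form, stood at 27.8, 31.3, 26.7 and 26.9 FPKM, and Pfkm, the muscle form, did not exceed 2.55 FPKM. Their shares moved less, with Pfkp between 46.3% and 61.4%.

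Over all members, 6 of 36 (16.7%) were more than 2 times as high in mouse WT-139 as in any other mouse, against 6.15% of all genes tested. They were Egln3, Slc2a3, Slc2a6, Hk3, Pfkfb3 and Slc16a3. Slc16a3, the lactate exporter MCT4 of glycolytic cells, stood at 87.1, 23.5, 29.7 and 20.5 FPKM. The 12 neutrophil markers were high in the same mouse, by which the 6 genes had been picked. Each of the 12 was highest in mouse WT-139, with S100a8 at 19445 FPKM against 382, 838 and 536 FPKM. Among the other mice, Egln3 and Slc2a6 followed the order of the summed neutrophil level. Slc2a3, Hk3, Pfkfb3 and Slc16a3 did not. Neutrophils are known for glycolysis as their main energy source, and their part in these 6 genes was not tested. The summed level of 9 macrophage markers was not high in that mouse, at 1199, 2159.9, 1489.8 and 1297 FPKM. Single markers of this list were divided. Mouse WT-139 was the highest for 3 of the 9 (33.3%, against 29.7% of all genes) and the lowest for 5 (55.6%, against 39.2%). The part of macrophages in the 6 genes was not tested either.

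**Figure D2:**
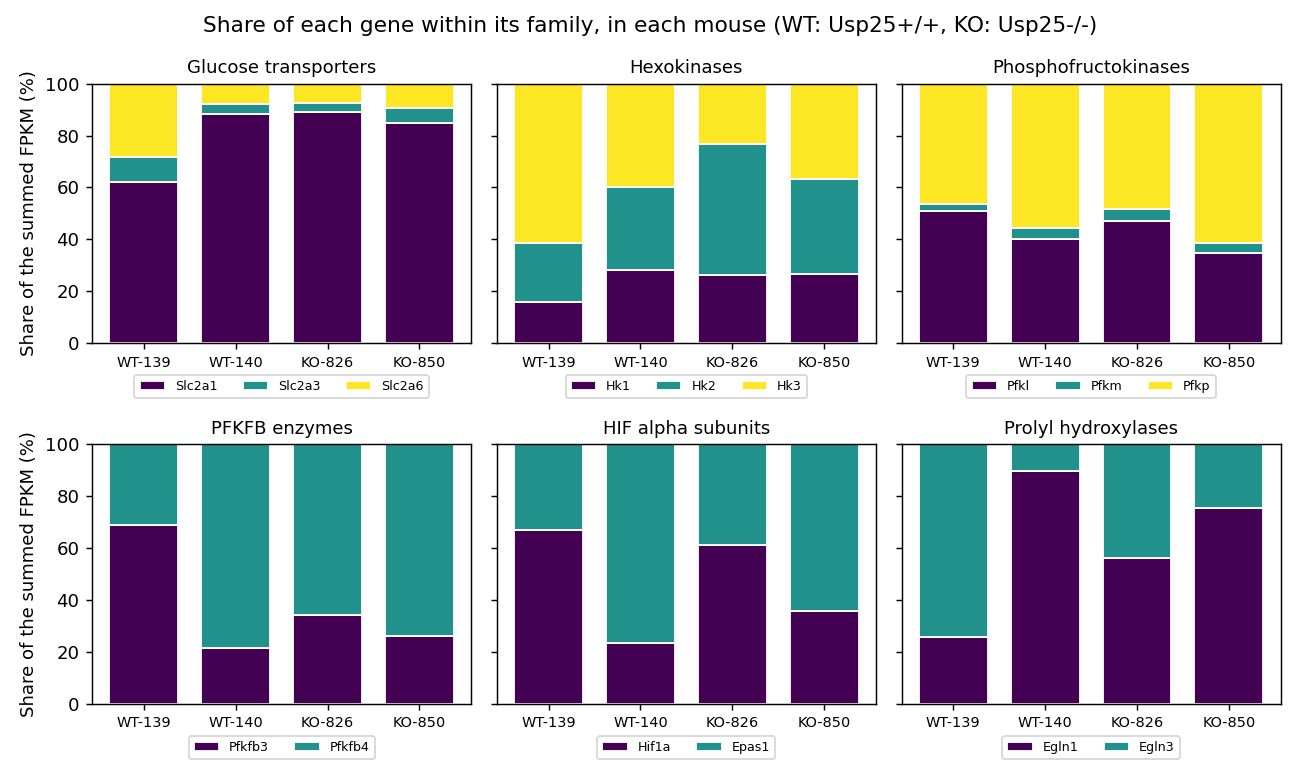
Stacked bars of the percent of the summed FPKM that each gene holds within its family, with 1 bar for each mouse. In mouse WT-139 Hk3 (61.6%), Pfkfb3 (69.0%) and Egln3 (74.3%) hold most of their family, while the phosphofructokinase shares differ less.

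A mean over 100 FPKM was reached by 8 members, the enzyme genes Aldoa, Pkm, Eno1, Tpi1, Pgk1, Pgam1 and Gpi1 and the lactate dehydrogenase gene Ldha. Aldoa, muscle-type aldolase, was the highest, at 475, 779.8, 767 and 603 FPKM. Pkm, which encodes pyruvate kinase of non-liver tissues, stood at 627, 519.9, 498 and 379.6 FPKM, with both Usp25-/- mice below both Usp25+/+ mice. Eno1, the common enolase, stood at 423, 395, 498 and 321 FPKM and overlapped. Gpi1, which turns glucose phosphate into fructose phosphate, stood at 116, 119, 102 and 82.2 FPKM, and Pgam1, a mutase of the lower pathway, at 172, 152, 142 and 107 FPKM. For both genes the Usp25-/- mice lay below the Usp25+/+ mice, with log2 differences of -0.36 ± 0.31 and -0.39 ± 0.33 (SE).

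In all, 7 of the 14 enzyme genes did not overlap and were lower in Usp25-/- mice (Hk1, Hk3, Gpi1, Pfkp, Gapdh, Pgam1 and Pkm), against 14.7% of all genes, and 0 were higher. None passed limma (adjusted p from 0.968). Mouse KO-850 was the lowest mouse for 8 of these 14, against 12.9% of all genes.

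Several of these levels are uncertain because similar copies exist elsewhere in the genome. A search of the mm9 genome for the coding sequences, at 90% identity over at least 80% of the length, found copies for 11 of the 36 members. Gapdh had 53, of which 52 lack introns, Ldha had 15, Aldoa 6, Pkm 4 and Pgam1 3. Tpi1, Pgk1, Eno1 and Bnip3 had 2 each, and Gpi1 and Ldhb had 1 each. At 95% identity Gapdh kept all 53, while Ldha had 3, Pkm 1, Tpi1 1 and Aldoa 0. Pgam1, Pgk1, Eno1, Bnip3, Gpi1 and Ldhb kept all of theirs. Tpi1, Pgk1, Ldha and Bnip3, described below as highest in mouse KO-826, are thus among the members with copies. Gapdh, glyceraldehyde phosphate dehydrogenase, stood at 39.1, 69.6, 37.0 and 29.6 FPKM, in every mouse below Tpi1 and Pgk1, the enzymes before and after it in the pathway. How the authors treated reads with several matches is not given in the sources used here, and the part of the copies in these levels was not tested. No copy was found for 25 members, including Hif1a, Egln3, Slc2a6, Hk3, Pfkfb3, Slc16a3 and Ndrg1.

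A second set of genes was highest in mouse KO-826. Tpi1, triose phosphate isomerase, stood at 186, 208, 398 and 157 FPKM. Pgk1, which makes the first ATP of the pathway, stood at 160.4, 102, 235 and 129 FPKM. Ldha, the lactate-forming dehydrogenase subunit whose window is printed above, stood at 500.0, 459.9, 864 and 473 FPKM. For Tpi1, Pgk1 and Ldha, mouse KO-850 lay among or below the Usp25+/+ mice. Without mouse KO-826 the log2 differences of Tpi1 and Ldha turned from 0.34 to -0.33 and from 0.41 to -0.02. That of Pgk1 fell from 0.44 to 0.007. Ldhb, the subunit that favours the reverse reaction, was low throughout and lowest in mouse KO-826, at 12.1, 8.53, 6.19 and 10.8 FPKM. Ldha thus held between 97.6% and 99.3% of the summed lactate dehydrogenase level. Pdk1, a kinase that restrains the oxidation of pyruvate in mitochondria, stood at 5.84, 10.6, 9.91 and 7.37 FPKM and overlapped.

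The genes induced by low oxygen outside glycolysis showed the same mouse even more clearly. Of 7, 6 were highest in mouse KO-826 (85.7%), against 25.5% of all genes, and their summed level was 315 FPKM there and at most 153 FPKM in the other mice. Ndrg1 carried much of that sum, and without it the sums were 127, 124, 182 and 106 FPKM, with mouse KO-826 still highest for 5 of 6 genes. Ndrg1 (chromosome 15, 66760883 to 66801202, mm9), a stress gene strongly induced by low oxygen, led with 133 FPKM against 21.9, 29.1 and 33.0 FPKM, which is 4.03 times the next mouse. It was the only member past 2 times the next mouse there (2.78%, against 2.4% of all genes). Both Usp25-/- mice lay above both Usp25+/+ mice, at 82.9 ± 70.6 against 25.5 ± 5.11 FPKM (SD, n = 2). The log2 difference was 1.36 ± 0.68 (SE), with an adjusted p of 0.968 by limma. It was 0.37 without mouse KO-826.

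The other members of that set had smaller gaps. Vegfa, the main vascular growth factor, stood at 48.6, 30.6, 70.1 and 35.8 FPKM, and Bnip3, a protein of mitochondrial removal, at 33.4, 29.6, 45.9 and 22.4 FPKM. Ddit4, an inhibitor of mTOR signalling, stood at 12.3, 20.3, 31.4 and 16.3 FPKM. Adm, a vasodilator peptide, stood at 3.60, 5.70, 6.30 and 1.59 FPKM, with its highest and lowest levels in the 2 Usp25-/- mice. P4ha1, a collagen prolyl hydroxylase, hardly varied, at 19.1, 16.5, 19.8 and 18.5 FPKM. Ankrd37, an ankyrin repeat gene known as a HIF target, was the exception, highest in mouse WT-140 and lowest in mouse KO-826 at 9.91, 21.5, 8.85 and 10.9 FPKM.

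Markers of other cell types stood high in mouse KO-826 for some lists and low for others. The summed level of the 12 colon epithelial markers was 12.6, 14.1, 141 and 40.8 FPKM, led by Lgals4, Krt20 and Guca2a. Sftpb, a surfactant gene, stood at 865, 1139, 3284 and 1580.5 FPKM. It was the 1 lung epithelial marker of 9 that was highest in mouse KO-826, which was the lowest mouse for 4 of them. The summed level of 8 red cell and platelet markers was 35.7, 27.6, 76.1 and 40.1 FPKM. The endothelial sum was the lowest of the 4 in that mouse and the neutrophil sum the second highest. Their part in the hypoxia-induced levels was not tested.

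**Figure D3:**
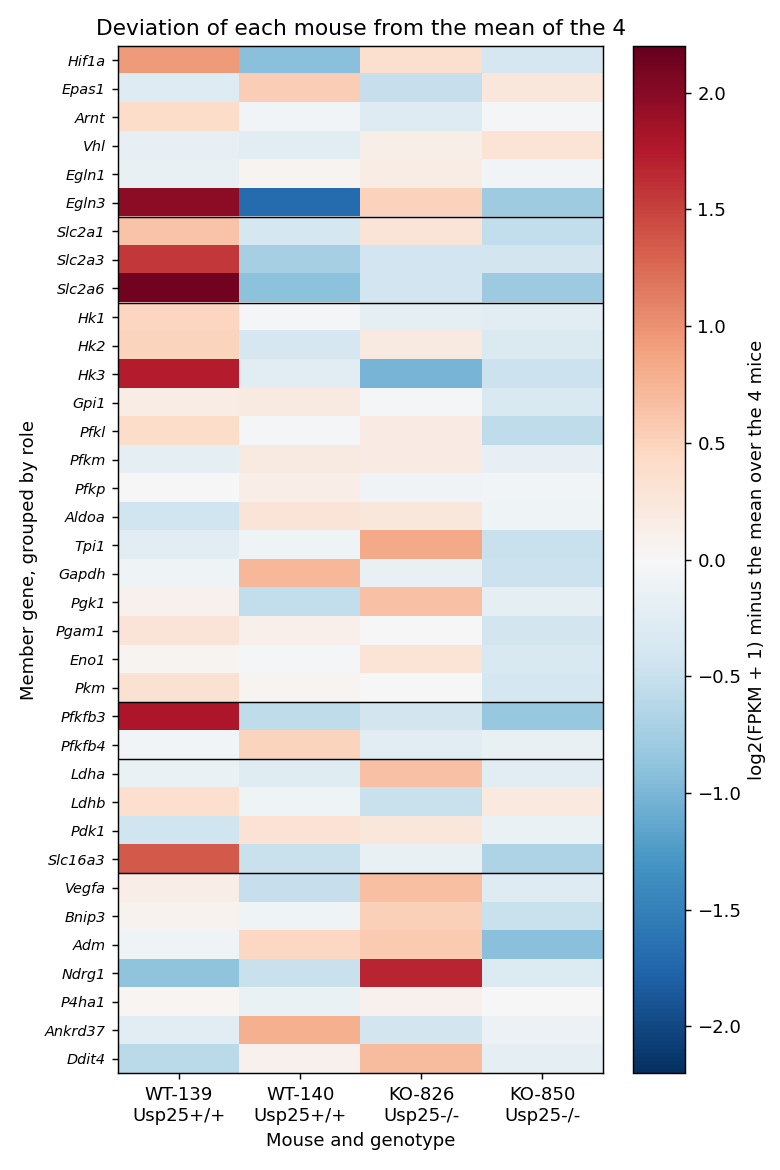
Heat map of log2(FPKM + 1) minus its mean over the 4 mice, with 1 row for each member and 1 column for each mouse (red above the mean, blue below). The red squares of mouse WT-139 include Hif1a, Egln3, Slc2a3, Slc2a6, Hk3, Pfkfb3 and Slc16a3, and those of mouse KO-826 include Tpi1, Pgk1, Ldha, Vegfa, Bnip3, Ndrg1 and Ddit4.

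The wider pathway was read from lists that hold none of the 36 members, and 0 of their genes passed limma in either direction. Of 30 further hypoxia-induced genes 25 were tested, 14 higher and 11 lower in Usp25-/- mice, with a median log2 difference of 0.08 against 0.03 over all genes. Mouse KO-826 was highest for 11 of the 25 (44%). The most abundant of them was Hmox1, heme oxygenase, at 451, 273, 592 and 315 FPKM, followed by Bhlhe40, a repressor of transcription, at 161, 166, 163 and 117 FPKM. Mif, an inflammatory cytokine, stood at 63.0, 141, 155 and 109.7 FPKM and Selenbp1 at 142, 63.1, 77.3 and 82.8 FPKM. Unadjusted p was under 0.05 for 4 of the 25 genes, all higher in Usp25-/- mice, against 2.25% of all genes higher and 1.06% lower. These are named after their values were seen. Car9, a carbonic anhydrase that is among the most specific HIF targets, stood at 5.24, 2.92, 26.4 and 9.26 FPKM. P4ha2, a relative of P4ha1, stood at 5.70, 3.50, 11.6 and 8.61 FPKM. Stc2 stood at 0.942, 0.154, 5.30 and 2.35 FPKM and the growth factor gene Pdgfb at 4.31, 6.58, 11.7 and 11.1 FPKM. Each of the 4 had both Usp25-/- mice above both Usp25+/+ mice, which their choice by p favours, and the adjusted p by limma was at least 0.968. Over all 25 genes the groups did not overlap for 6 higher and 2 lower, together 32%, against 33.7% of all genes.

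Genes around the HIF switch divided between both directions. Of 13 tested genes of oxygen sensing beyond the members, 7 were higher and 6 lower, with a median of 0.12. Groups did not overlap for 8 of them, 4 higher (19% of all genes) and 4 lower (14.7%). Cited2, which competes with HIF for its coactivators, was the 1 gene with an unadjusted p under 0.05, and it is named after its values were seen. It stood at 36.9, 26.7, 12.2 and 20.3 FPKM, lower in both Usp25-/- mice (adjusted p = 0.968 by limma). Tceb2 and Tceb1, the elongins that work with VHL, had levels of 147, 218, 245 and 199 FPKM (Tceb2) and 47.4, 29.4, 50.7 and 45.4 FPKM (Tceb1). Rbx1, the RING protein of the same ligase, stood at 55.4, 51.9, 73.8 and 57.5 FPKM, and Os9, a lectin of protein quality control, at 35.1, 56.2, 25.9 and 38.5 FPKM.

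Of 10 genes around pyruvate dehydrogenase, the gate to mitochondrial oxidation, 7 were higher and 3 lower, with a median of 0.20. For 5 of them both Usp25-/- mice lay above both Usp25+/+ mice, against 19% of all genes, and 0 lay below. Pdhb, a subunit of its first enzyme, stood at 56.2, 49.1, 92.3 and 66.7 FPKM, and its partner Pdha1 at 26.8, 20.3, 32.7 and 30.3 FPKM. Dld, the dehydrogenase subunit it shares with other complexes, stood at 46.5, 29.0, 42.7 and 37.9 FPKM, and the inhibitory kinase gene Pdk4 was highest in mouse WT-140 at 9.13, 27.1, 11.0 and 13.4 FPKM.

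Transport beyond the SLC2A members was led by Bsg, the chaperone of lactate transporters, at 255, 283, 448 and 287 FPKM. Mpc1 and Mpc2, the mitochondrial pyruvate carrier, had levels of 78.6, 93.4, 97.5 and 69.6 FPKM (Mpc1) and 20.1, 45.4, 42.5 and 48.2 FPKM (Mpc2). Slc16a1, the other common lactate transporter, stood at 8.36, 6.22, 9.78 and 7.31 FPKM and so did not share the high level of Slc16a3 in mouse WT-139. Of 8 tested genes of this list 5 were higher and 3 lower (median 0.13). The 10 tested further isoenzymes and side enzymes of glycolysis divided into 5 and 5 (median -0.04). The 8 tested genes of the pentose phosphate pathway divided into 4 and 4 (median -0.02). Gluconeogenesis had 4 tested genes, all with higher means in Usp25-/- mice (median 0.33).

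**Figure D4:**
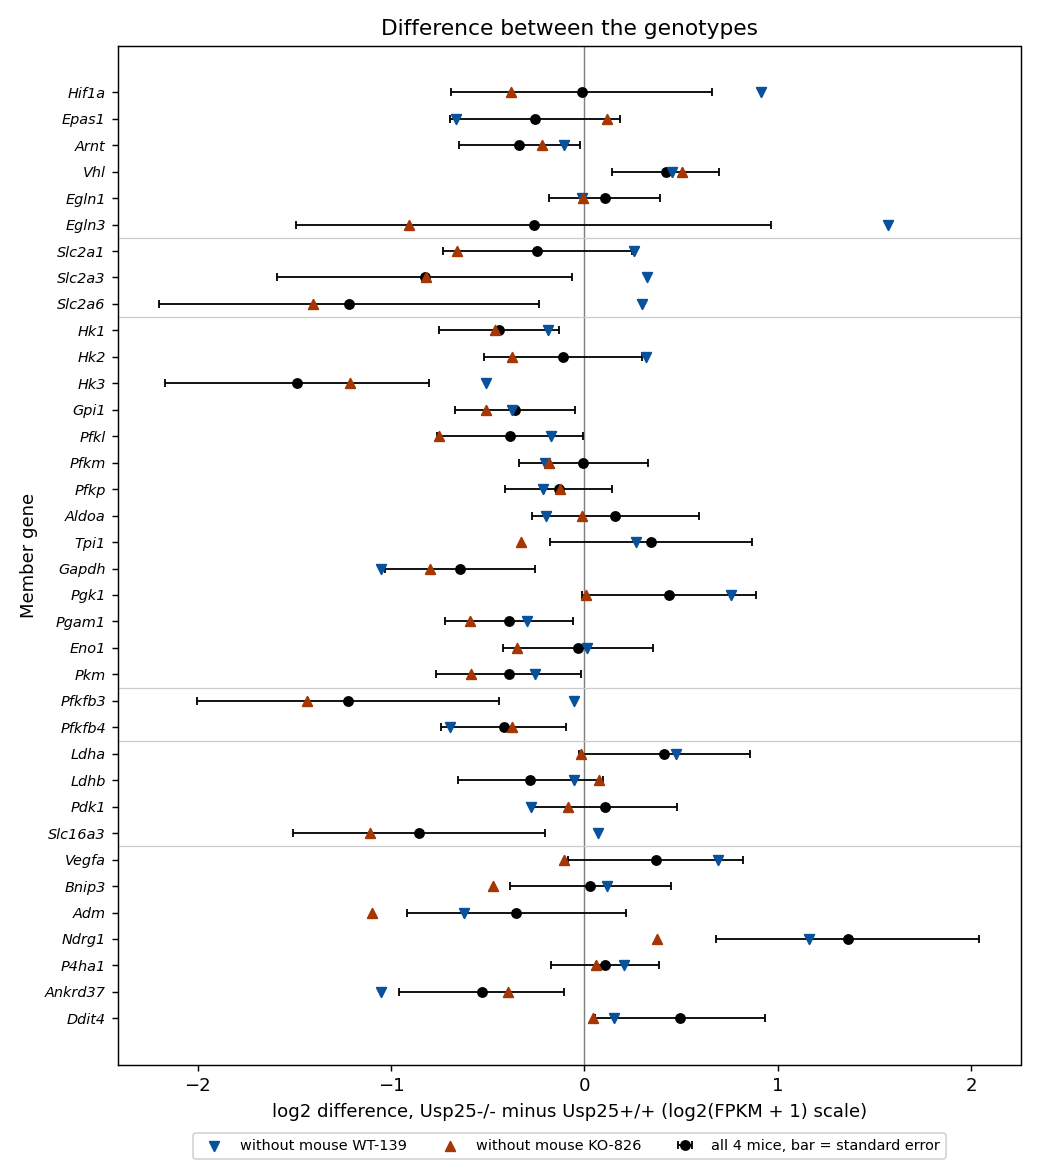
Difference between the genotypes for each member on the log2(FPKM + 1) scale, with circles and standard error bars for all 4 mice and triangles for the fits without mouse WT-139 (pointing down) and without mouse KO-826 (pointing up). Slc2a3, Slc2a6 and Slc16a3 cross 0 without mouse WT-139, Tpi1, Ldha and Vegfa cross it without mouse KO-826, and Vhl and Hk3 stay on their side.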

How the data were processed

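Values are FPKM in 1 table with a column for each of the 4 mice, computed by the authors. Bowtie 0.12.2 and build mm9 are named, per the submitters' processing notes. Which program gave the FPKM values, with what annotation, strand setting or filter, is not given in the sources used here.

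The 27 rows whose symbols a spreadsheet had turned into dates were left out, which left 24394 genes. The 12103 with at least 1 FPKM in at least 2 mice were tested on log2(FPKM + 1), which makes differences of low genes look smaller, with limma 3.58.1 in R 4.3.3 (mean-variance trend, two-sided, no block, since no litter or batch is recorded). P-values were adjusted by Benjamini-Hochberg over all genes tested, with a threshold of 0.05. An exact permutation test of 1 gene cannot go below p = 0.333 with 2 mice against 2. Variances were moderated by limma toward a trend over all genes tested. The SE of each log2 difference and the p-values rest on them, so they do not reflect a gene's own 4 values alone. They cover no spread beyond these mice.

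The members and gene lists were chosen with earlier results of these data known, so no list is independent support. Named are all members, Usp25, genes from among the 4 most abundant of a list and marker genes at 0 in all mice. From the lists of further glycolytic isoenzymes, the pentose phosphate pathway and gluconeogenesis, genes are named only under the closing observations, by their values. Any other gene is marked as chosen with its values in view. Positions come from Gencode for mm9, in which all 36 members were placed (Pkm under an older symbol), and copies were sought with minimap2 2.31. Promoter windows are from RefSeq. Plots used matplotlib 3.10.9. Results were recomputed with another pseudocount, other filters and scalings, no variance trend, and each mouse left out.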

Additional observations from a re-analysis of the deposited data

How the results depend on the processing

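Depth is unknown, and 2 mice a group limit every comparison. Scaling, pseudocount (0.1), filter and trend left 0 members called and 11 or 12 of them higher in Usp25-/- mice. Bnip3 was the exception in direction, at -0.0017 with median-of-ratios scaling. Leaving out 1 mouse gave 0 to 163 genes called and 0 to 1 members called, the 163 and the 1 both without mouse WT-140. It gave 7 to 19 members higher and a median log2 difference of -0.37 to 0.15. The log2 difference turned sign with a mouse left out for 19 members. It ranged from -0.94 to 0.91 for Hif1a, -0.66 to 0.15 for Epas1, -0.011 to 0.22 for Egln1, -2.10 to 1.57 for Egln3 and -0.75 to 0.26 for Slc2a1. For Slc2a3 it was -1.97 to 0.32, for Slc2a6 -2.73 to 0.30, for Hk2 -0.54 to 0.32, for Pfkm -0.20 to 0.19 and for Aldoa -0.20 to 0.52. It was -0.33 to 1.01 for Tpi1, -0.35 to 0.28 for Eno1, -0.020 to 0.85 for Ldha, -0.63 to 0.076 for Ldhb and -0.27 to 0.48 for Pdk1. Slc16a3 ranged from -1.78 to 0.068, Vegfa from -0.11 to 0.84, Bnip3 from -0.47 to 0.53 and Adm from -1.10 to 0.39. In each such fit the lone mouse of a genotype is assumed to vary like the other group. No paired analysis was possible because no litter or batch ties mice across the genotypes, and the replicate numbers follow accession order.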

Other observations

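Beside the members, a few genes of neighbouring pathways differed widely between single mice, and they are named after their values were seen. Nos2, the inducible nitric oxide synthase of inflammation and a known HIF target, had a level of 67.7 FPKM in mouse WT-139, against 1.44, 0.501 and 1.61 FPKM in the remaining mice (WT-140 first, then KO-826, then KO-850). Aldoc, a second aldolase, was the reverse, with 5.93 FPKM in mouse WT-139 against 32.1, 18.0 and 18.1 FPKM in the others. Pgls, of the pentose phosphate pathway, which branches from glycolysis to supply NADPH, was low in mouse WT-139 at 31.4 FPKM, against 142, 119.5 and 111 FPKM in the others. Taldo1 of the same pathway stood at 267 FPKM there and at 489.6, 404 and 381 FPKM in the others, whereas G6pdx, its entry enzyme, was highest there at 62.7 FPKM against 52.2, 42.3 and 46.0 FPKM. Fbp2, a gluconeogenic phosphatase of muscle, had 1.94 and 2.81 FPKM in the Usp25+/+ mice against 18.0 and 6.72 FPKM in those without Usp25, with an unadjusted p of 0.0127 and an adjusted p of 0.968 by limma.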
